A study of Mus musculus with 6 samples.

Results

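Pax7-positive induced myogenic progenitor cells (iMPC) were compared with quiescent satellite cells (QSC), the stem cell pool of adult muscle, across all genes measured by poly(A) RNA sequencing. The comparison took 3 of the 6 libraries of the series: 1 library of iMPC sorted as positive for the Pax7-nGFP reporter, and 2 libraries of QSC, from mouse 1 and from mouse 3. Of the 38924 genes in the files, 17116 were tested, and 11397 of these reached at least 5 CPM (counts scaled to library size) in the higher of the 2 groups and are the genes described here. The other 3 libraries, of activated satellite cells (ASC, labelled Pax7-plus and p1), of Pax7-nGFP-negative iMPC and of mouse embryonic fibroblasts (MEF), entered the same model fit. Per the labels, fibroblasts (MEFs and TTFs) were reprogrammed into iMPC in medium with basic FGF and doxycycline, with and without forskolin (an activator of adenylyl cyclase), RepSox (an inhibitor of the type I TGF-beta receptor) and the GSK3 inhibitor CHIR99021. Expanded iMPC cultures were kept free of doxycycline in the presence of all 3 small molecules. The sources used here do not say which fibroblasts this iMPC library came from, what doxycycline switched on, whether the culture was a clone, how QSC were isolated, or the strain, age and sex of the mice. Cell origin and culture differ together between the groups and cannot be told apart.

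Satellite cells lie between the muscle fibre and its basement membrane, out of the cell cycle, and are marked by the transcription factor Pax7. On injury they re-enter the cycle, and their progeny either fuse into fibres or return to quiescence. iMPC are dividing cultures that hold Pax7-positive progenitors beside more differentiated muscle cells, and the reporter separates the progenitors from the rest.

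Gene levels are given as CPM after trimmed mean (TMM) scaling, first for Pax7-positive iMPC and then for QSC of mouse 1 and mouse 3, in that order. A gene was called when the adjusted p of edgeR's quasi-likelihood test (Benjamini-Hochberg over the 17116 genes tested) was below 0.05, and "rose", "fell", "higher" and "lower" stand for iMPC relative to QSC. Of the 11397 genes, 1675 (14.7%) were called higher and 1429 (12.5%) were called lower in iMPC, and 8293 were not called. By size alone, 1674 genes were at least 4-fold higher and 1652 at least 4-fold lower. Every called gene moved the same way against each mouse taken alone, so for called genes both mice lay on one side of iMPC. The calls came from these same libraries, so this describes the called genes and is no independent support. A gene near 0 CPM in 1 mouse can meet it narrowly, as the Y-linked genes described below do. For comparison, 513 of the 11397 genes were at least 4-fold apart between the mice themselves. The estimate of spread comes from the pair of QSC mice, shared in large part across genes, and the lone iMPC library was assumed to vary like them. Values after ± are standard errors derived from the log2 fold change and the F statistic of the test. They do not measure a spread among iMPC libraries.

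Scaling bears on the split between higher and lower. The 50 most abundant genes took 25.6% and 27.9% of the counts in QSC but 10.6% in iMPC. With scaling by library size in place of TMM, the median log2 fold change of the 11397 genes was 0.81 in place of 0.14, and 1869 genes were called higher and 508 lower, so that 78.6% of the calls were higher in place of 54.0%. Genes whose call was lost under library-size scaling carry a dagger (†) at their first mention in a paragraph. Each list below with 0 edgeR calls in a direction also had 0 DESeq2 calls in it, and 0 members there at an unadjusted p below 0.05, or 1 in the AP-1, NF-kB regulator and nucleotide synthesis lists. Library totals were 29279686 and 29001640 counts for QSC of mouse 1 and mouse 3 and 26351821 for iMPC.

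**Figure D1:**
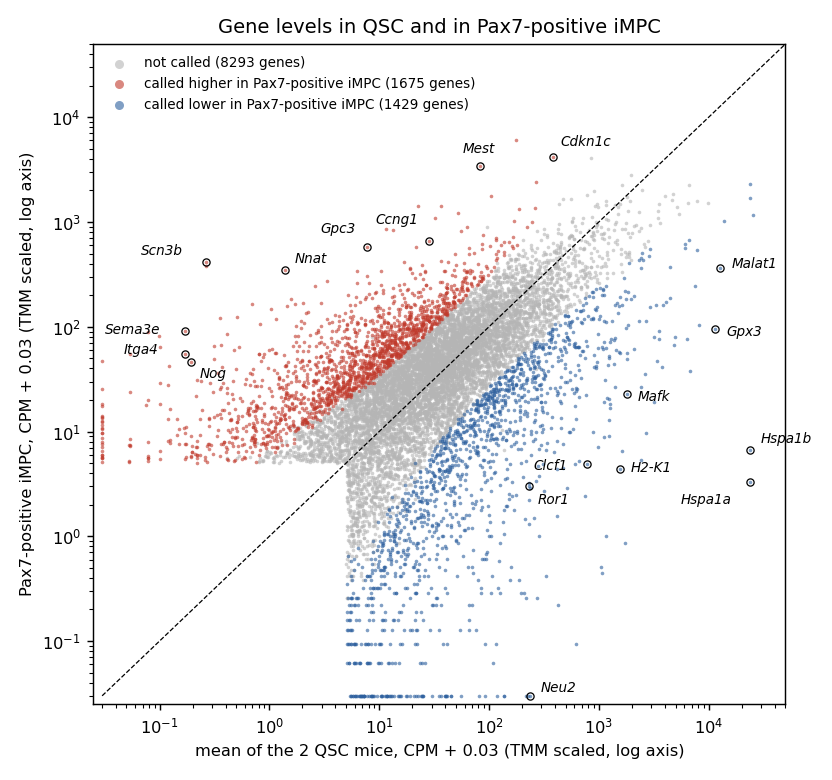
Each point is 1 of 11397 genes; the x axis is the mean of the 2 QSC mice and the y axis Pax7-positive iMPC, both CPM + 0.03 on log axes, and the dashed line marks equal levels. Red points were called higher in iMPC (1675), blue points lower (1429) and grey points were not called (8293); Hspa1a and Hspa1b lie at the far right far below the line.

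The labels were checked against markers. Pax7 itself had 37.8 CPM in iMPC against 34.5 and 159.7 CPM in QSC, so the iMPC library lay between the mice. Of 15 satellite cell markers, 0 were called higher and 7 lower (46.7%, against 12.5% of all genes). The markers lower in iMPC included Chrdl2, Sdc4 and Msc†, whose values are given below. Genes of other cell types were present in the QSC libraries. The summed level of 14 endothelial markers was 348.4 and 67.15 CPM in QSC against 22.17 CPM in iMPC, where 4 of the 14 had 0 counts. The summed level of 17 immune markers was 288.9 and 178.3 CPM against 21.01 CPM, with 8 of 17 at 0 counts in iMPC. For 12 fibro-adipogenic markers it was 3751 and 3869.6 CPM in QSC and 276 CPM in iMPC. The immune and fibro-adipogenic lists each had 7 members with at least 5 CPM. In each, 5 of the 7 were called lower (71.4%) and 1 higher (14.3%), against 12.5% and 14.7% of all genes. Of 12 endothelial markers at that level, 9 were called lower (75.0%) and 0 higher. With library-size scaling 1 endothelial marker was called lower. The sum of 12 pericyte and smooth muscle markers did not fall below both mice, at 2433.2 and 3849.5 CPM in QSC and 2895.1 CPM in iMPC. Of the 10 with at least 5 CPM, 3 were called higher (30.0%) and 1 lower (10.0%). In bulk RNA, fewer cells of a type and less RNA per cell cannot be told apart, and what part such cells had in the falls described below was not tested.

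Most genes of largest fitted change had 0 counts on one side. The rises were led by Htr1b, a serotonin receptor, at 47.3 CPM in iMPC and 0 counts in both mice, at least 679-fold higher (floor of 3 counts over the group; 331 and 349 with mouse 1 and mouse 3 alone, where the same 3 counts are set against 1 library). With 0 counts in both mice, Frmd3 had 25.5 CPM, Fam220a 18.1 CPM, Tram1l1 17.4 CPM, the phosphatase gene Ptprv 12.7 CPM, the anoctamin Ano3 12.3 CPM, the phosphatase subunit gene Ppp2r2b 10.7 CPM and the Notch-binding Dner 9.75 CPM in iMPC. The falls were led by Neu2, the cytosolic sialidase that is expressed in muscle, with 0 counts in iMPC against 314 and 159 CPM, at least 2427-fold lower. Tnxb (tenascin-X, a matrix glycoprotein) had 0 counts against 38.4 and 122 CPM, P2ry14, a receptor of UDP-sugars, 0 counts against 10.2 and 80.5 CPM, and Trabd2b, an inhibitor of Wnt ligands, 0 counts against 9.82 and 71.8 CPM. The mice differed several-fold for the last pair, with mouse 3 above mouse 1. The nuclear receptor Nr4a3 and the class I gene H2-Q6 had 0 counts against 58.2 and 213 CPM and 66.5 and 45.6 CPM, and Chrdl2, a BMP antagonist, had 2 counts in iMPC against 604 and 643 CPM, a ratio of 9703-fold (95% counting interval 2686 to 80126). The macrophage gene Lyz2 and the haemoglobin gene Hbb-bs†, at 182 and 54.4 CPM and 424 and 8.82 CPM in QSC and 0 counts in iMPC, belong to the immune and erythroid marker lists.

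The most abundant mRNAs per length were of different kinds in the groups. RPKM values divide the counts by transcript length as well as by library size, and among the genes tested the highest in QSC belonged to ubiquitin, ferritin and chaperone mRNAs and to the nuclear noncoding RNA Malat1. Ubb†, a polyubiquitin gene, had 1916 RPKM in iMPC against 12822 and 12134 RPKM in QSC. Hspa8†, the constitutive HSP70, had 1054 RPKM in iMPC against 9437 and 8825 RPKM in QSC. Malat1 had 552 RPKM in iMPC against 9383 and 14987 RPKM in QSC. All of these were called lower in iMPC. In iMPC, the top ranks held Cdkn1c†, an imprinted CDK inhibitor, at 2571 RPKM in iMPC against 260.4 and 28.5 RPKM in QSC, and Mest, an imprinted gene of mesoderm, at 1624 RPKM in iMPC against 40.2 and 8.31 RPKM in QSC. Mouse 1 was above mouse 3 for both. Itm2a, a membrane protein of muscle and cartilage precursors, stood at 2775 RPKM in iMPC against 585 and 115 RPKM in QSC, and its difference was not called (edgeR adjusted p = 0.059). Lars2, the mitochondrial leucyl-tRNA synthetase, read 1851 RPKM in iMPC against 14.98 and 53.2 RPKM in QSC, but its transcript can collect reads derived from ribosomal RNA, so this value is uncertain.

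The summed level of the heat shock proteins and their J-domain partners was lower in iMPC than in either mouse. Chaperones of the HSP70, HSP90 and small HSP classes hold unfolded proteins, DnaJ proteins bring clients to HSP70, and BAG proteins release them. The family as a whole summed to 122021 and 144854 CPM in QSC and 12538 CPM in iMPC. Of its 68 members with at least 5 CPM, 23 fell (33.8%) and 8 rose (11.8%), against 12.5% and 14.7% of all genes. Under library-size scaling 10 fell and 10 rose. The family median was -0.52 on the log2 scale and changed sign to 0.16 under that scaling. The stress-inducible HSP70 gene Hspa1a had 3.25 CPM against 22959.8 and 24292 CPM, a log2 fold change of -12.83 ± 1.66 (edgeR adjusted p = 8.2e-05). Its near-identical neighbour Hspa1b had 6.596 CPM against 21657 and 25750.0 CPM. Because reads of the pair can be assigned to either copy, their separate values are uncertain. For each copy iMPC was low and both mice were high. The J-domain gene Dnaja4 had 2.41 CPM against 374 and 1132 CPM (log2 fold change -8.28 ± 1.07, edgeR adjusted p = 8.2e-05), and Dnajb1, the main J-domain partner of inducible HSP70, had 75.5 CPM against 4305 and 8344 CPM. Mouse 3 was above mouse 1 for both J-domain genes. Bag3, a co-chaperone of chaperone-assisted autophagy, had 41.1 CPM against 3637 and 3849 CPM. The HSP110 gene Hsph1 had 162 CPM against 3373 and 4312 CPM, and the cytosolic HSP90 gene Hsp90aa1† had 559.5 CPM against 4736 and 7377 CPM. Hspa5†, the HSP70 of the endoplasmic reticulum, and its partner Dnajb9 fell too, to 1028 CPM from 13375 and 14273 CPM and to 20.3 CPM from 239 and 305 CPM. Hsp90b1, also of the reticulum, had 995 CPM against 1327 and 1534 CPM and Hspa9, of the mitochondrion, had 969 CPM against 859 and 532 CPM, and neither was called. The 8 members that rose included Dnajc9, a histone co-chaperone, at 180.2 CPM against 39.5 and 16.3 CPM, and Bag6, a quality-control factor for membrane proteins, at 175 CPM against 30.5 and 45.7 CPM.

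Promoter sequences are shown for 4 families, because members of each hold the motif that textbooks assign to the family's regulators. The member shown was the called one with the most matches in the bases printed, ties going to the largest change. It is thus not a typical member. Sequences are the 150 bases before the RefSeq transcription start (build GRCm38.p6), written on the gene's strand, with motif matches in capitals; motifs were searched on both strands from 250 bases before to 50 bases after the start, and a match is a description of letters, not a site or a cause. For the chaperones the motif was the core of the heat shock element, GAANNTTC. It occurred in 9 of 20 promoters of members that fell (45%) 0 of 7 of those that rose and 13 of 56 of all members (23.2%), against 7.0% of the promoters of all genes tested. Dnaja4 (chr9:54699409-54699558, plus strand) held 2 matches, starting 90 and 52 bases before the start.
Dnaja4: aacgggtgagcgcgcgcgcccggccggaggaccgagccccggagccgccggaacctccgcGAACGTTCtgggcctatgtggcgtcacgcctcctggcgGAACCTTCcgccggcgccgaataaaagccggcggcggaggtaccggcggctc

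Many AP-1, ATF and Maf factors, immediate-early ones among them, were lower in iMPC. Several of these leucine zipper proteins are induced within minutes by growth factors, cytokines and stress. Of 23 members, 15 fell and 0 rose (10 fell under library-size scaling), and the family summed to 16915 and 22447 CPM in QSC and 1146 CPM in iMPC. Fosb had 2.67 CPM against 171 and 467 CPM and Fos had 76.4 CPM against 2174 and 4831 CPM. The small Maf proteins lack a transactivation domain: Mafk had 22.9 CPM against 1891 and 1682 CPM (log2 fold change -6.28 ± 0.92, edgeR adjusted p = 2.0e-04) and Maff had 4.31 CPM against 286 and 545 CPM. Among the Jun partners, Junb had 172 CPM against 4172 and 4048 CPM and Jun 196 CPM against 1829.7 and 2368 CPM. Crem, a cAMP-responsive factor, had 10.1 CPM against 166 and 189.6 CPM. Atf2 and Creb1, factors controlled chiefly by phosphorylation, had 66.7 CPM against 57.8 and 46.5 CPM (Atf2) and 57.3 CPM against 49.01 and 73.98 CPM (Creb1) and were not called. The CRE letters TGACGTCA stood in 2 of 12 promoters of the members that fell (16.7%) and 2 of 18 of all members (11.1%), against 3.4% of the promoters of all genes tested, and the AP-1 letters TGANTCA stood in 1 of 12 (8.3%) and 1 of 18 (5.6%), against 6.8%.

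Zinc finger factors of the Egr and Kruppel-like families followed the same direction. Of 20 members, 10 fell and 1 rose, and 5 fell under library-size scaling. Klf9, a target of glucocorticoid and thyroid hormone receptors, had 7.05 CPM against 906 and 1068 CPM (log2 fold change -7.13 ± 0.91, edgeR adjusted p = 7.6e-05). Egr1 had 539.9 CPM against 6629.6 and 9032 CPM, and Klf4 had 5.24 CPM against 139 and 291 CPM. The member that rose was Klf14 at 36.00 CPM against 0.620 and 0 CPM. Among 29 nuclear receptors, 10 fell (34.5%) and 4 rose (13.8%, near the 14.7% of all genes). The orphan receptors Nr4a1 and Nr4a2, also immediate-early genes, fell to 20.4 CPM from 844 and 1648 CPM and to 3.22 CPM from 199 and 264 CPM. Among the others that fell, the oestrogen receptor Esr1 had 6.56 CPM against 96.7 and 101 CPM and the mineralocorticoid receptor Nr3c2 had 1.06 CPM against 22.5 and 40.9 CPM. Those that rose were Esrra, a regulator of mitochondrial genes, at 53.2 CPM against 3.05 and 3.84 CPM, Nr2f2 (COUP-TFII) at 51.2 CPM against 4.91 and 3.93 CPM, and the retinoid X receptors Rxra and Rxrg, at 81.9 CPM against 20.3 and 24.2 CPM (Rxra) and 6.403 CPM against 0.572 and 0.407 CPM (Rxrg). Zbtb16 (PLZF), a factor of several stem cell types, had 0 counts in iMPC against 35.1 and 37.98 CPM in QSC, at least 379-fold lower when set against a floor of 3 counts over the group.

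Clock genes form a transcriptional loop in which Arntl† and Clock drive Per and Cry, and the ROR and REV-ERB receptors regulate Arntl. Of 17 clock genes, 12 were called lower and 0 higher; 3 remained called under library-size scaling. Those 3 were Rora at 10.7 CPM against 415 and 498 CPM, the REV-ERB gene Nr1d1 at 9.17 CPM against 226 and 181 CPM and Nfil3 at 23.3 CPM against 347 and 500.0 CPM. Both limbs of the loop were lower: the activator Arntl had 10.5 CPM against 89.1 and 73.6 CPM and the repressors Per1†, Per2† and Cry1† had 6.18 CPM against 39.5 and 113 CPM (Per1), 2.48 CPM against 17.1 and 42.6 CPM (Per2) and 30.8 CPM against 172 and 132 CPM (Cry1). Clock itself had 28.1 CPM against 47.3 and 51.01 CPM and was not called. The sources used here do not state the time of day at which cells were collected. The E-box CACGTG stood in 2 of 10 promoters of the clock genes that fell (20.0%) and 4 of 15 of all clock genes (26.7%), against 11.3% of the promoters of all genes tested.

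Regulators of NF-kB and cytokine signalling were lower as a group. Of 25 members, 19 fell and 0 rose (8 fell and 1 rose under library-size scaling), with a median log2 fold change of -3.17. The inhibitors that NF-kB itself induces were among them: Nfkbia (IkB-alpha) had 74.8 CPM against 1522 and 1227 CPM (log2 fold change -4.20 ± 0.81, edgeR adjusted p = 0.0016), and the ubiquitin-editing enzyme Tnfaip3 (A20) had 3.73 CPM against 52.6 and 58.4 CPM. The subunits fell too, Nfkb1 to 38.7 CPM from 924 and 398 CPM and Rela to 127 CPM from 1078 and 986 CPM. Of the suppressors of cytokine signalling, Socs1† fell to 11.4 CPM from 166 and 39.8 CPM. Socs3 was lower as well, at 180.2 CPM against 501 and 818 CPM, but was called by DESeq2 only.

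Of 25 interleukins and receptors, 12 fell and 2 rose, against 7 and 2 under library-size scaling. Clcf1, a ligand of the ciliary neurotrophic factor receptor, had 4.83 CPM against 624 and 945 CPM, and its log2 fold change was -7.34 ± 0.92 (edgeR adjusted p = 6.4e-05). Il6 had 1.83 CPM against 81.7 and 61.4 CPM, Lif† had 2.03 CPM against 71.8 and 24.1 CPM, and the shared receptor chain Il6st had 131 CPM against 245 and 212 CPM and was not called. The 2 that rose were Il13ra1, at 126 CPM against 5.77 and 2.71 CPM, and the alarmin Il33, at 33.5 CPM against 10.3 and 5.29 CPM. Of 16 chemokines and their receptors, 10 fell and 1 rose, Cxcl5†, at 47.5 CPM against 8.82 and 0.0452 CPM, which DESeq2 did not call. The neutrophil attractant Cxcl1 had 35.2 CPM against 4288 and 978 CPM, with mouse 1 above mouse 3 and both above iMPC, and the eosinophil attractant Ccl11 had 6.02 CPM against 104 and 107 CPM. Ccl19, a ligand of Ccr7, had 0 counts in iMPC against 70.4 and 115 CPM, at least 967-fold lower (floor of 3 counts). In the TNF superfamily, 3 of 14 genes rose (21.4%) and 5 fell (35.7%), against 14.7% and 12.5% of all genes. With library-size scaling 4 rose and 2 fell. Tnfrsf12a, the receptor of TWEAK, had 90.5 CPM against 4153 and 2912 CPM, and the death receptor Fas had 10.8 CPM against 242 and 492 CPM. Tnfsf11 (RANKL), the osteoclast differentiation factor, went the other way, with 54.4 CPM against 0.0477 and 0 CPM; its QSC level rests on 1 count, and the ratio was 2343-fold (95% counting interval 419.9 to 92595).

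Most genes of antigen presentation fell. Class I molecules present cytosolic peptides on nearly all nucleated cells, with B2m as the shared light chain and Tap1 and Tap2† as the peptide pump. Of 22 genes of the MHC and antigen processing list, 16 fell and 0 rose (11 fell under library-size scaling), and the list summed to 6821 and 5353 CPM in QSC and 159 CPM in iMPC. H2-K1 had 4.38 CPM against 1607 and 1509.8 CPM (log2 fold change -8.47 ± 1.01, edgeR adjusted p = 5.0e-05), and H2-D1 had 9.62 CPM against 3384 and 1995 CPM. Class I genes of mouse are similar in sequence and differ between strains, so reads can move between them and the values of single genes are uncertain. B2m, which has no such copy, had 71.2 CPM against 1050.4 and 1193 CPM. Tapbp, which tethers class I to the pump, had 17.4 CPM against 235 and 148 CPM, and Tap2 had 11.6 CPM against 125 and 86.9 CPM; Tap1, at 13.4 CPM against 25.7 and 13.1 CPM, was not called. The class II gene H2-Aa had 0 counts in iMPC against 11.9 and 18.4 CPM in QSC, at least 157-fold lower (floor of 3 counts). Cd74, the class II invariant chain, had 3 counts in iMPC, 0.0965 CPM against 45.8 and 63.7 CPM, a ratio of 569-fold (95% counting interval 195 to 2763). Class II molecules and Cd74 mark professional antigen-presenting cells, and they moved with the immune marker sums given above.

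Interferon-induced genes fell in 21 of 36 cases with 0 rises (6 fell under library-size scaling), with a median log2 fold change of -2.94. Ifitm3, a membrane protein that restricts viral entry, had 114 CPM against 1371 and 1257 CPM and Ifi27 had 22.2 CPM against 272 and 325 CPM. The exonuclease gene Isg20 had 0.386 CPM against 85.3 and 127 CPM (log2 fold change -8.09 ± 0.99, edgeR adjusted p = 6.0e-05), and the ubiquitin-like modifier Isg15 had 0.869 CPM against 25.7 and 24.1 CPM. The transcription factors of the pathway were lower as well, with Irf1† at 18.6 CPM against 129.8 and 147 CPM, Irf9† at 5.24 CPM against 48.9 and 64.4 CPM and Stat2† at 5.82 CPM against 28.9 and 63.3 CPM. The core of the interferon-stimulated response element, GAAANNGAA, was found in 11 of 18 promoters of the members that fell (61.1%) and 17 of 29 of all members (58.6%), against 8.7% of the promoters of all genes tested. In the MHC list it was found in 2 of 11 of those that fell (18.2%) and 3 of 17 of all (17.6%). Isg15 (chr4:156200819-156200968, minus strand) held 3 overlapping matches, starting 78, 72 and 66 bases before the start.
Isg15: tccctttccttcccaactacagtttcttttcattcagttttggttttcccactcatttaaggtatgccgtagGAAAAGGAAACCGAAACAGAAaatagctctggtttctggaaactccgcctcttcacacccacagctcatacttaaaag

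Complement genes fell in 9 of 13 cases. The regulator Serping1 (C1 inhibitor) had 18.4 CPM against 1318 and 1228 CPM (log2 fold change -6.11 ± 0.88, edgeR adjusted p = 1.8e-04). The proteases C1s and C1ra had 0.515 CPM against 22.03 and 20.6 CPM (C1s) and 1.35 CPM against 48.9 and 55.4 CPM (C1ra). C1qb, made chiefly by macrophages, had 0 counts in iMPC against 10.9 and 14.4 CPM, at least 132-fold lower (floor of 3 counts), and it moved with the immune marker sums. The member that rose was Masp1, a lectin pathway protease, at 7.304 CPM against 0.286 and 0.0452 CPM.

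Of 12 metallothionein and iron genes, 6 fell and 3 rose. The metallothioneins, small zinc-binding proteins, had 112 CPM against 2088 and 3261 CPM for Mt1 and 49.3 CPM against 1568 and 2019 CPM for Mt2 (log2 fold change -5.18 ± 0.87, edgeR adjusted p = 6.0e-04). The iron-storage gene Fth1† had 678 CPM against 7579 and 5713 CPM, and the iron exporter Slc40a1† had 1.51 CPM against 25.3 and 25.5 CPM. The importer Slc39a14 fell as well, to 25.7 CPM from 340.0 and 455 CPM, and the importer Slc11a2, at 56.02 CPM against 111 and 39.2 CPM, was not called. The 3 that rose were the transferrin receptor Tfrc, which had 208 CPM against 53.2 and 27.9 CPM, and the iron-responsive element binding proteins Ireb2 and Aco1, which had 69.2 CPM against 15.7 and 18.7 CPM (Ireb2) and 108 CPM against 38.7 and 27.3 CPM (Aco1). Among 39 genes of glutathione metabolism and NRF2 response, 9 fell and 1 rose. Hmox1, which degrades haem, had 37.7 CPM against 10687 and 2761 CPM (log2 fold change -7.48 ± 1.28, edgeR adjusted p = 6.8e-04), with mouse 1 above mouse 3 and both above iMPC. Gpx3, a secreted peroxidase, had 95.7 CPM against 9166 and 13883 CPM, and Sod3, the extracellular superoxide dismutase, had 1.35 CPM against 99.2 and 106 CPM. The quinone reductase Nqo1 rose, at 37.1 CPM against 4.05 and 5.38 CPM. Of 21 targets of ATF4, 9 fell and 3 rose. Ddit3 (CHOP) and Trib3, the stress arm of that response, had 4.34 CPM against 98.3 and 196 CPM (Ddit3) and 2.06 CPM against 38.3 and 71.2 CPM (Trib3), and Asns, which makes asparagine, had 123 CPM against 16.02 and 11.1 CPM.

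**Figure D2:**
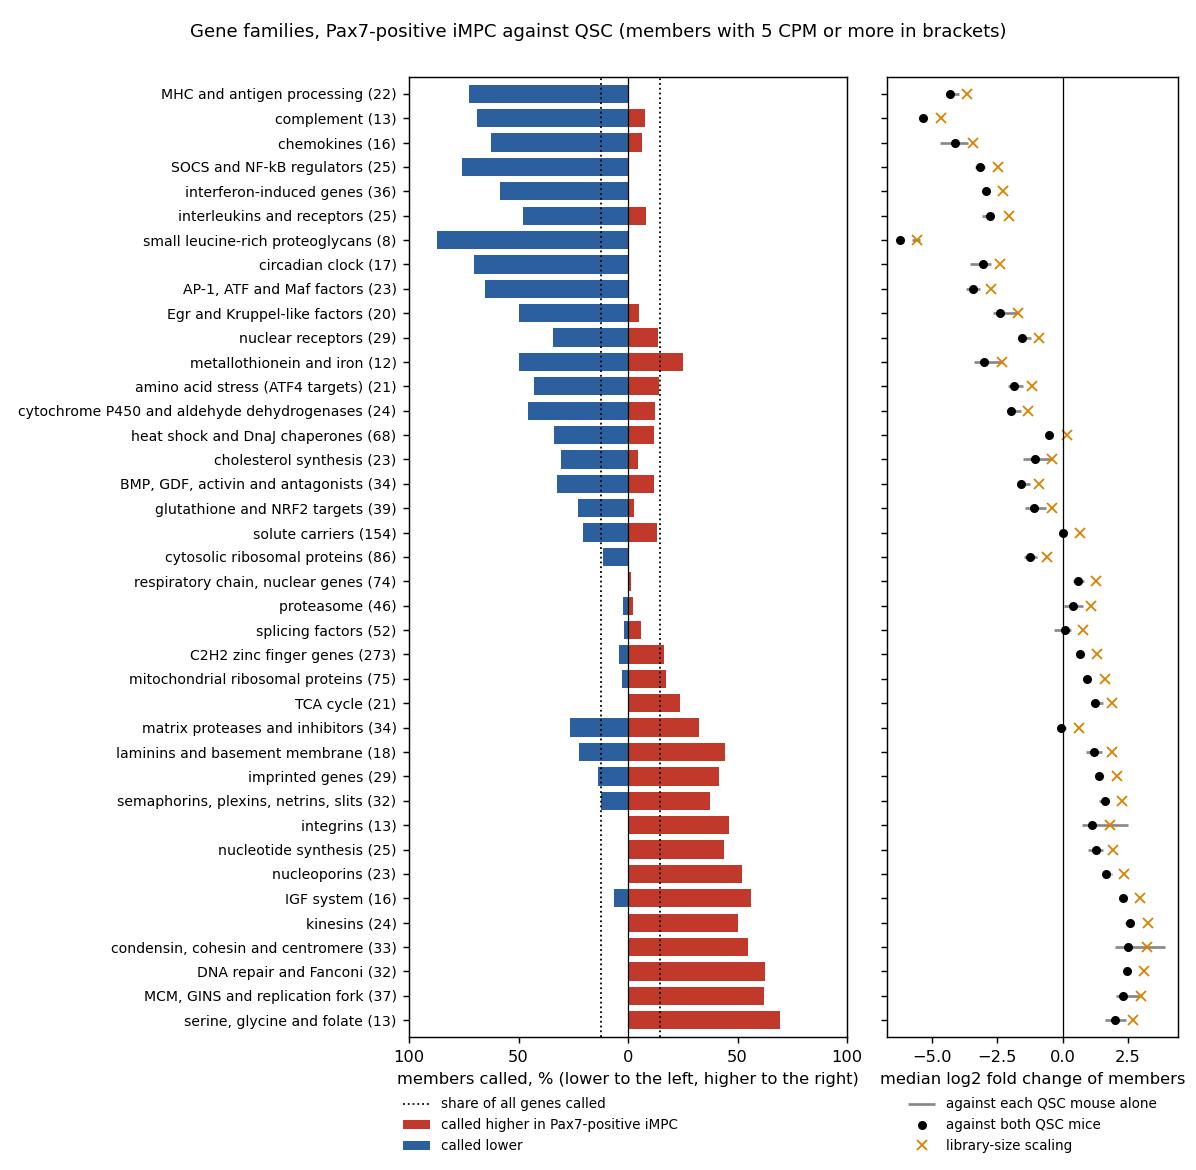
Left, the share of each family's members (at least 5 CPM) called higher (red, to the right) or lower (blue, to the left), with dotted lines at the shares of all genes, 14.7% and 12.5%; right, the median log2 fold change against both mice (dots), each mouse alone (bars) and under library-size scaling (crosses). Immune, clock, AP-1 and Egr families lie to the left, and replication, repair, mitosis and folate families to the right.

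Secreted factors of the BMP and Wnt pathways differed in ligands and antagonists. Of 34 genes of the BMP and activin list, 11 fell (32.4%) and 4 rose (11.8%, against 14.7% of all genes). Under library-size scaling 4 rose and 7 fell. The ligands Bmp6 and Bmp2 fell to 0.547 CPM from 104 and 144 CPM and to 0.418 CPM from 62.1 and 80.8 CPM, and Bambi, a decoy receptor, fell to 3.54 CPM from 175 and 118 CPM. The antagonist Nog (noggin) rose, with 46.5 CPM against 0.143 and 0.181 CPM (log2 fold change 8.12 ± 0.86, edgeR adjusted p = 1.8e-05). The receptor Bmpr1a had 108 CPM against 80.1 and 69.4 CPM, the shared mediator Smad4 had 138 CPM against 206 and 176 CPM, and neither was called. In the Wnt list, 7 of 20 genes rose and 5 fell (3 fell under library-size scaling). Ror1, a receptor of Wnt5a, had 2.96 CPM against 204 and 258 CPM (log2 fold change -6.28 ± 0.85, edgeR adjusted p = 1.1e-04), and Wnt5a had 17.02 CPM against 0.143 and 1.31 CPM. Wnt4† had 2.45 CPM against 29.5 and 58.8 CPM, and the co-receptor Lrp5 had 18.6 CPM against 0.477 and 2.67 CPM while Lrp6, at 44.1 CPM against 52.02 and 59.9 CPM, was not called. Hbegf, an EGF receptor ligand, fell to 2.48 CPM from 173 and 134 CPM, and Egfr† had 43.6 CPM against 160.3 and 229.7 CPM. The related receptor Erbb3 rose to 26.4 CPM from 0.858 and 1.67 CPM.

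Matrix genes differed by class. Small leucine-rich proteoglycans, which space collagen fibrils, fell in 7 of 8 cases. Prelp had 1.54 CPM against 443 and 386 CPM (log2 fold change -8.06 ± 0.92, edgeR adjusted p = 3.3e-05), Ogn had 8.49 CPM against 229 and 298 CPM, and Fmod had 0.193 CPM against 32.7 and 40.2 CPM. These genes are shared with fibroblast and tendon lists, and the sum of 7 tendon markers was 91.2 and 144 CPM in QSC and 59.4 CPM in iMPC; the part of such cells was not tested. Hyaluronan synthases switched member: Has1 had 0.193 CPM against 537 and 305 CPM and Has2 had 27.4 CPM against 0.524 and 0.950 CPM. Tnfaip6 (TSG-6), which crosslinks hyaluronan, fell to 0.483 CPM from 968 and 1126 CPM. Of 18 basement membrane genes, 8 rose and 4 fell (2 fell under library-size scaling). Col18a1 had 1406 CPM against 45.7 and 27.7 CPM (log2 fold change 5.26 ± 0.71, edgeR adjusted p = 1.1e-04), Nid2 had 352 CPM against 27.1 and 10.99 CPM, and the laminin beta chain Lamb1 had 224 CPM against 17.6 and 4.07 CPM. Among the laminin chains that fell were Lama3, of epithelia, at 0.0965 CPM against 18.8 and 24.4 CPM, then Lamc3†, at 0.0643 CPM against 9.58 and 1.45 CPM, and the muscle chain Lama2†, at 31.02 CPM against 120.4 and 188 CPM. Lama3 and Lamc3 had 3 counts and 2 counts in iMPC, and their ratios were 224-fold (95% counting interval 76.5 to 1089.8) and 84.03-fold (95% counting interval 23.00 to 698). Of 19 other collagens, 6 rose, with Col26a1 at 363 CPM against 21.3 and 16.6 CPM and Col13a1, a transmembrane collagen of the neuromuscular junction, at 65.6 CPM against 0.524 and 0.0452 CPM. The collagen that fell was Col27a1†, at 0.483 CPM against 11.3 and 11.2 CPM.

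Adhesion receptors rose in part. Of 13 integrin genes, 6 rose and 0 fell. Itga4, which binds fibronectin and Vcam1, had 55.1 CPM against 0.238 and 0.0452 CPM (log2 fold change 8.57 ± 0.91, edgeR adjusted p = 1.8e-05), and Itga6, a laminin receptor chain, had 304 CPM against 10.9 and 4.703 CPM. The muscle laminin receptor Itga7 and its partner Itgb1 were not called, at 724 CPM against 435 and 238 CPM (Itga7) and 758 CPM against 776 and 338 CPM (Itgb1). Gpc3, a glypican, had 577 CPM against 11.4 and 4.16 CPM and Sulf2, which removes sulfate from heparan sulfate, had 102 CPM against 1.67 and 1.76 CPM. The syndecan Sdc4 fell, to 184 CPM from 2048 and 1903 CPM. Among 34 matrix proteases and inhibitors, 11 rose and 9 fell (14 rose and 1 fell under library-size scaling). The membrane-type protease Mmp15 and the gelatinase Mmp9 had 105 CPM against 0.811 and 0.769 CPM (Mmp15) and 167 CPM against 1.95 and 3.89 CPM (Mmp9). The urokinase receptor Plaur† had 32.3 CPM against 1176 and 209 CPM. Guidance molecules rose in 12 of 32 cases and fell in 4 (1 fell under library-size scaling): Sema3e had 91.5 CPM against 0.143 and 0.136 CPM (log2 fold change 9.31 ± 0.76, edgeR adjusted p = 5.0e-06), its relative Sema3a had 46.7 CPM against 1.53 and 5.38 CPM, Slit2 had 36.3 CPM against 2.34 and 4.07 CPM, and the receptor Plxna1 had 210.0 CPM against 25.4 and 13.9 CPM. Ntn5 fell, to 3.06 CPM from 142 and 107 CPM. Epha3, an ephrin receptor, had 35.4 CPM against 0.572 and 0.769 CPM.

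**Figure D3:**
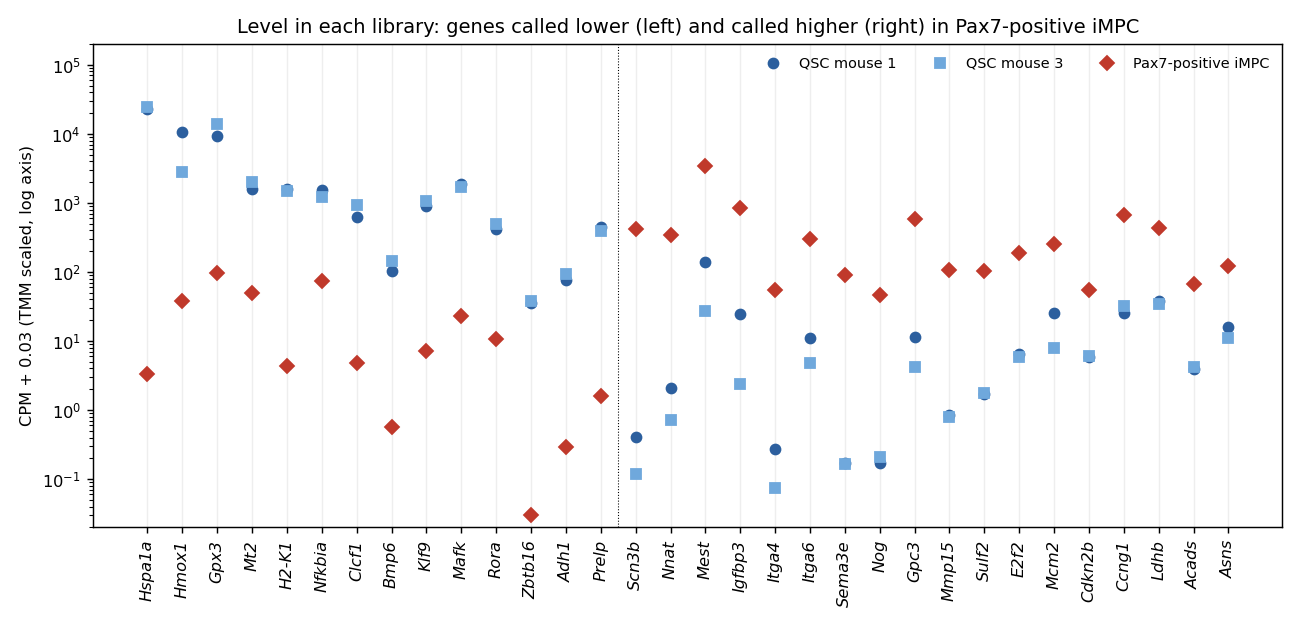
Levels of 32 genes in the 3 libraries, as CPM + 0.03 on a log axis; circles are QSC of mouse 1, squares QSC of mouse 3 and diamonds Pax7-positive iMPC. In each of the 14 genes on the left both mice lie above iMPC, and in each of the 18 on the right both lie below it.

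Most DNA replication genes were higher in iMPC. The MCM helicase opens the origin, Cdc45 and GINS join it, and the polymerases and Chaf1 follow with synthesis and histone deposition. Of 37 members, 23 rose and 0 fell, with a median log2 fold change of 2.3. Mcm2 had 257 CPM against 25.4 and 7.96 CPM (log2 fold change 3.95 ± 0.67, edgeR adjusted p = 6.8e-04) and Mcm6 had 384 CPM against 78.4 and 22.4 CPM. The chromatin assembly gene Chaf1a had 101 CPM against 6.06 and 2.49 CPM and the polymerase gene Pole had 44.01 CPM against 3.58 and 1.58 CPM. Mouse 1 was above mouse 3 for each of these genes, and 6 of the 37 members were at least 4-fold apart between the mice. Pcna, the sliding clamp, had 202 CPM against 335 and 161 CPM and was not called. The E2F motif TTTNGCGC occurred in 7 of 20 promoters of members that rose (35%) and 10 of 30 of all members (33.3%), against 2.6% of the promoters of all genes tested. Mcm6 (chr1:128359706-128359855, minus strand) held 3 matches, starting 110, 106 and 47 bases before the start, of which the first 2 overlap on opposite strands.
Mcm6: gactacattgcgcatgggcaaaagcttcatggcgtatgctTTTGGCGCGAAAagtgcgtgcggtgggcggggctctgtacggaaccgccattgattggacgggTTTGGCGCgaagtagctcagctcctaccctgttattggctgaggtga

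Repair genes rose in 20 of 32 cases with 0 falls. Exo1, which resects ends, had 43.3 CPM against 2.19 and 0.588 CPM. Parp1, a sensor of strand breaks, had 230.5 CPM against 24.4 and 12.3 CPM (log2 fold change 3.65 ± 0.61, edgeR adjusted p = 6.0e-04), and Ung, which removes uracil, had 28.2 CPM against 0.858 and 0.271 CPM. The E2F factors themselves divided: E2f2, E2f7 and E2f8 rose, at 191 CPM against 6.44 and 5.92 CPM (E2f2), 37.97 CPM against 2.62 and 0.724 CPM (E2f7) and 56.7 CPM against 2.098 and 0.0904 CPM (E2f8), while E2f5† had 12.6 CPM against 48.9 and 64.5 CPM and E2f4, at 148 CPM against 58.6 and 56.3 CPM, was not called.

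Mitotic genes rose as well. Of 24 kinesins, the microtubule motors, 12 rose and 0 fell (7 rose under library-size scaling). Kif2c, a depolymerase that corrects attachments, had 81.6 CPM against 3.29 and 0.0904 CPM (log2 fold change 5.59 ± 1.02, edgeR adjusted p = 0.0011), Kif18b had 87.4 CPM against 4.43 and 0.859 CPM and Kif23, of the central spindle, had 88.8 CPM against 9.39 and 2.71 CPM. The transport kinesins Kif5b and Kif3a, which carry cargo along microtubules, had 251 CPM against 382 and 403 CPM (Kif5b) and 35.4 CPM against 33.3 and 49.6 CPM (Kif3a) and were not called. Of 33 condensin, cohesin and centromere genes, 18 rose and 0 fell. The condensin genes Ncapd2 and Ncaph had 157 CPM against 13.8 and 5.79 CPM (Ncapd2) and 144 CPM against 15.7 and 5.79 CPM (Ncaph), and Sgol1, which protects centromeric cohesion, had 49.2 CPM against 2.81 and 0.678 CPM. In 13 of the 33 members the mice were at least 4-fold apart, and iMPC was above both mice in every member called. The cell cycle homology region, TTTGAA, was present in 9 of 11 promoters of the kinesins that rose (81.8%) and 9 of 15 of the condensin and centromere genes that rose (60.0%), against 14.3% of the promoters of all genes tested. Over all members of these lists the shares were 9 of 21 (42.9%) and 12 of 26 (46.2%). For the CCAAT box the shares were 7 of 11 (63.6%) and 11 of 15 (73.3%) of those that rose and 10 of 21 (47.6%) and 17 of 26 (65.4%) of all members, against 42.1%. Kif2c (chr4:117178773-117178922, minus strand) held 1 match on the opposite strand, starting 103 bases before the start.
Kif2c: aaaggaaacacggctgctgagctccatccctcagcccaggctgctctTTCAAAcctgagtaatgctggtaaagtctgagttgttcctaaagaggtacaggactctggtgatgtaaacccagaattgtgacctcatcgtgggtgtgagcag

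Inhibitors of the cell cycle were among the genes that rose. Of 10 CDK inhibitors and retinoblastoma family genes, 5 rose and 1 fell. Cdkn1c† (p57) had 4143 CPM against 691 and 71.04 CPM (log2 fold change 3.44 ± 0.93, edgeR adjusted p = 0.014). Cdkn2b (p15) and Cdkn2a (p16 and p19ARF) had 54.2 CPM against 5.77 and 6.01 CPM (Cdkn2b) and 9.72 CPM against 0.191 and 0.0904 CPM (Cdkn2a). Rb1 and its relative Rbl1 had 69.98 CPM against 18.9 and 16.5 CPM (Rb1) and 47.4 CPM against 6.198 and 5.698 CPM (Rbl1). Cdkn1a† (p21), a p53 target, had 501 CPM against 2755 and 2181 CPM. Among 20 p53 targets, 5 rose and 5 fell: Ccng1 had 664 CPM against 24.98 and 32.2 CPM (log2 fold change 4.54 ± 0.65, edgeR adjusted p = 1.7e-04) and Phlda3 347 CPM against 69.2 and 49.3 CPM, while Gadd45b had 9.81 CPM against 739 and 1038 CPM and Btg2 78.7 CPM against 1419 and 1365 CPM. Trp53 itself had 213 CPM against 322 and 170.2 CPM and was not called. Myc and Mycl moved in opposite directions and stood at similar levels in iMPC. Myc had 155 CPM against 4093 and 1754 CPM, and Mycl had 158 CPM against 2.57 and 0.271 CPM (log2 fold change 6.80 ± 0.88, edgeR adjusted p = 8.2e-05).

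Genes of biosynthesis rose in part. Serine, glycine and folate genes, which supply carbon units for nucleotides, rose in 9 of 13 cases with 0 falls. Phgdh† and Psat1†, of serine synthesis, had 263 CPM against 100.2 and 27.00 CPM (Phgdh) and 297 CPM against 99.03 and 24.4 CPM (Psat1), and the mitochondrial folate enzyme Mthfd1l had 69.5 CPM against 12.2 and 12.98 CPM. Nucleotide synthesis genes rose in 11 of 25 cases with 0 falls. Cad, which starts pyrimidine synthesis, had 155 CPM against 14.1 and 20.8 CPM (log2 fold change 3.15 ± 0.59, edgeR adjusted p = 0.0013), and Gart, of purine synthesis, had 203 CPM against 43.5 and 30.5 CPM. Rrm2, the regulated subunit of ribonucleotide reductase, had 558 CPM against 112 and 20.3 CPM. Of 21 TCA cycle genes 5 rose (8 rose under library-size scaling), among them citrate synthase Cs at 529 CPM against 136 and 107 CPM, and 0 fell. In fatty acid oxidation 5 of 19 genes rose, with the short-chain dehydrogenase Acads at 67.4 CPM against 3.96 and 4.21 CPM, and Pdk4, which shuts off pyruvate oxidation, fell to 11.97 CPM from 101 and 125 CPM. Of 19 genes of glycolysis and glucose transport, 2 rose (10.5%) and 3 fell (15.8%), near the 14.7% and 12.5% of all genes. The other 14, Gapdh, Pkm and Ldha among them, were not called. With library-size scaling 4 rose and 0 fell. Glucose transporters Slc2a1† and Slc2a3† had 44.1 CPM against 227 and 145 CPM (Slc2a1) and 18.7 CPM against 116 and 69.9 CPM (Slc2a3), while the lactate dehydrogenase subunit Ldhb had 427 CPM against 38.5 and 33.9 CPM (log2 fold change 3.56 ± 0.58, edgeR adjusted p = 4.9e-04). Scd2 and Scd1†, stearoyl-CoA desaturases, moved apart, with 492 CPM against 34.6 and 63.3 CPM (Scd2) and 9.298 CPM against 35.7 and 58.8 CPM (Scd1).

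Cholesterol synthesis genes were lower in 7 of 23 cases and higher in 1 (1 lower under library-size scaling). Sc5d†, a desaturase of the pathway, fell, to 10.2 CPM from 58.6 and 106 CPM, and the member that rose was Dhcr7, a sterol reductase, at 33.4 CPM against 3.91 and 8.46 CPM. The letters of the sterol regulatory element, TCACNCCAC, stood in 0 of 5 promoters of the members that fell and 1 of 14 of all members (7.1%), against 1.5% of the promoters of all genes tested. Alcohol and retinaldehyde dehydrogenases divided: Adh1 had 0.257 CPM against 77.2 and 92.02 CPM (log2 fold change -8.33 ± 1.02, edgeR adjusted p = 6.0e-05), Adh7 had 55.2 CPM against 0.858 and 0.859 CPM, and Aldh1a1, a retinaldehyde dehydrogenase, had 0.0322 CPM against 28.2 and 24.4 CPM, where iMPC had 1 count and the ratio was 815-fold (95% counting interval 146 to 32222). Of 26 ABC transporters, 5 fell and 2 rose (3 rose and 3 fell under library-size scaling). The neighbours Abca8a and Abca8b had 2 counts and 1 count in iMPC, at 0.0643 CPM against 60.6 and 122 CPM (Abca8a) and 0.0322 CPM against 82.2 and 137 CPM (Abca8b), and the ratios were 1435-fold (95% counting interval 397 to 11851) and 3435-fold (95% counting interval 616 to 135700.0). Sat1, which acetylates polyamines for export, fell to 21.1 CPM from 933 and 1416 CPM.

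Nucleoporin genes rose in part, and chromatin genes were mixed. Of 23 nucleoporins, 12 rose and 0 fell, and 15 rose under library-size scaling. Nup188, of the inner ring, had 117 CPM against 6.06 and 11.1 CPM (log2 fold change 3.76 ± 0.61, edgeR adjusted p = 4.7e-04), and Nup107, of the outer ring, had 161 CPM against 28.8 and 13.6 CPM. Nup62 and Tpr, at 229.6 CPM against 365 and 302 CPM (Nup62) and 125 CPM against 151 and 158 CPM (Tpr), were not called. Of 25 DNA methylation and Polycomb genes, 3 rose (12%) and 4 fell (16%; 2 rose and 1 fell under library-size scaling). Of 33 histone demethylases and deacetylases, 3 rose (9.1%) and 2 fell (5 and 1 under that scaling), and of 12 histone cluster genes 3 rose and 3 fell (1 and 1). These shares of genes that rose are below the 14.7% of all genes in the first 2 lists. Dnmt1, which copies DNA methylation at replication, had 251 CPM against 26.6 and 26.4 CPM, while Dnmt3a, which sets it, had 69.7 CPM against 90.1 and 57.4 CPM and was not called. Tet2, which oxidises methylcytosine, had 6.403 CPM against 77.00 and 81.4 CPM. The Polycomb subunits Cbx2 and Cbx7† moved apart, at 31.8 CPM against 0.763 and 0.407 CPM (Cbx2) and 3.02 CPM against 16.97 and 62.3 CPM (Cbx7). C2H2 zinc finger genes, many of which repress transposable elements, rose in 45 of 273 cases (16.5%), near the 14.7% of all genes, and fell in 11 (6 fell under library-size scaling and 19 by DESeq2).

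Genes of fetal growth rose in part. Of 29 imprinted genes, 12 rose and 4 fell (1 fell under library-size scaling). Nnat, a proteolipid, had 344 CPM against 2.05 and 0.678 CPM (log2 fold change 7.98 ± 0.76, edgeR adjusted p = 9.8e-06), H19, a noncoding RNA, had 1430.5 CPM against 17.3 and 28.2 CPM, and Igf2 had 1779.8 CPM against 112 and 98.1 CPM. Dlk1 and Meg3†, reciprocally imprinted neighbours, had 182 CPM against 8.96 and 5.83 CPM (Dlk1) and 63.00 CPM against 267 and 1677 CPM (Meg3). Of 16 genes of the IGF system, 9 rose and 1 fell (2 fell by DESeq2). The ligand Igf2 rose together with the receptor Igf1r, at 84.3 CPM against 5.102 and 13.9 CPM, and the binding proteins Igfbp3 and Igfbp2, at 840.0 CPM against 24.4 and 2.35 CPM (Igfbp3) and 56.02 CPM against 1.95 and 0.271 CPM (Igfbp2). The docking proteins moved apart, Irs1 at 91.1 CPM against 2.57 and 5.47 CPM and Irs2 at 42.8 CPM against 465 and 827 CPM. Igf2bp3, an RNA-binding protein of the embryo, had 81.6 CPM against 0 and 0.136 CPM; its QSC level rests on 3 counts, and the ratio was 1172-fold (95% counting interval 401 to 5689). Trim71, a target of let-7, had 23.9 CPM against 0.0954 and 0.452 CPM.

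Ion channels and neural genes changed member by member. Of 15 potassium channels, 5 rose (33.3%) and 4 fell (26.7%), against 14.7% and 12.5% of all genes. Of 13 sodium and calcium channels, 6 rose (46.2%) and 3 fell (23.1%). Of 11 synaptic vesicle and neuronal genes, 4 rose (36.4%) and 5 fell (45.5%). With library-size scaling the falls in these lists numbered 3, 1 and 1. Kcnk1, a two-pore potassium channel, had 0 counts in iMPC against 12.7 and 22.5 CPM, at least 184-fold lower (floor of 3 counts). Kcnj12, an inward rectifier, had 8.17 CPM against 0.381 and 0 CPM. The calcium channel Cacna1d had 0.322 CPM against 19.9 and 24.2 CPM and Cacna1h had 7.72 CPM against 0.715 and 0.136 CPM. The sodium-calcium exchanger Slc8a1 had 11.4 CPM in iMPC and 0 counts in both mice, at least 164-fold higher (floor of 3 counts over the group; 79.9 and 84.2 with mouse 1 and mouse 3 alone). Neuronal genes split: the growth-cone gene Gap43 had 16.5 CPM against 0.143 and 0.0452 CPM (log2 fold change 7.40 ± 0.90, edgeR adjusted p = 5.9e-05), the tubulin gene Tubb3 had 19.3 CPM against 0.477 and 0.588 CPM, and Mapt (tau) had 0 counts in iMPC against 29.3 and 40.1 CPM in QSC, at least 361-fold lower (floor of 3 counts).

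Developmental transcription factors divided. Of 43 homeobox genes outside the Hox clusters, 10 rose and 10 fell (8 rose and 4 fell under library-size scaling). Dlx2 had 8.59 CPM in iMPC and 0 counts in both mice, at least 123-fold higher (floor of 3 counts over the group; 60.1 and 63.3 with mouse 1 and mouse 3 alone), and Prrx1, of limb mesenchyme, had 162 CPM against 16.8 and 20.1 CPM. Six4, a regulator of myogenic genes, had 92.4 CPM against 21.1 and 21.4 CPM. On the falling side, Lbx1, of migrating muscle precursors, had 0.837 CPM against 19.3 and 21.5 CPM and Mkx†, of tendon, had 2.61 CPM against 14.6 and 25.96 CPM. Of 8 T-box, Gata and Hand factors, 5 rose and 1 fell: Tbx2 had 37.2 CPM against 9.35 and 9.41 CPM, Tbx3 had 42.3 CPM against 11.8 and 10.4 CPM, Tbx15 had 37.4 CPM against 8.68 and 10.7 CPM and Gata2 had 52.6 CPM against 9.06 and 2.89 CPM. Among 39 basic helix-loop-helix factors, 7 rose (17.9%) and 10 fell (25.6%), against 14.7% and 12.5% of all genes. Under library-size scaling 8 rose and 3 fell. The E proteins Tcf3 and Tcf12, partners of the myogenic factors, rose to 247 CPM from 43.3 and 46.2 CPM and to 261 CPM from 63.5 and 72.7 CPM, while Msc† (musculin), a repressor of myogenic factors, had 32.2 CPM against 402 and 123 CPM and the aryl hydrocarbon receptor Ahr† had 18.4 CPM against 50.6 and 103 CPM. Of 10 Sox factors, 2 rose (20.0%) and 3 fell (30.0%), and of 14 forkhead factors 2 rose (14.3%) and 3 fell (21.4%). With library-size scaling 1 Sox factor and 0 forkhead factors fell. Sox8 and Sox9† moved apart, at 96.7 CPM against 17.4 and 18.6 CPM (Sox8) and 83.8 CPM against 374 and 379 CPM (Sox9), and Foxo1† had 35.6 CPM against 146 and 240.0 CPM. Factors outside these families were detected in iMPC with 0 counts in both mice: Tfap2c, of trophoblast and neural crest, had 13.9 CPM (at least 199-fold higher; 96.9 and 102 with mouse 1 and mouse 3 alone) and Bcl11b had 9.72 CPM (at least 139.6-fold higher, floor of 3 counts; 67.9 and 71.6 with mouse 1 and mouse 3 alone).

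Intracellular signalling genes also differed. Of 18 FGF ligands, receptors and feedback genes, 3 rose (16.7%) and 2 fell (11.1%), near the 14.7% and 12.5% of all genes. Etv1, a target of FGF signalling, had 82.3 CPM against 1.72 and 1.899 CPM, while the receptor Fgfr1† had 79.8 CPM against 497 and 532 CPM and Fgfr4, at 379.5 CPM against 323 and 479 CPM, was not called. Of 20 dual-specificity phosphatases, which switch off MAP kinases, 5 fell and 3 rose (2 rose and 3 fell under library-size scaling). Dusp1 had 57.5 CPM against 1691 and 1358 CPM (log2 fold change -4.73 ± 0.84, edgeR adjusted p = 9.2e-04), and Dusp9† had 14.4 CPM against 1.19 and 0.0452 CPM. Of 20 genes of the PDGF, VEGF, HGF and angiopoietin systems, 8 fell and 3 rose (1 fell under library-size scaling). The ligand Hgf rose, at 7.497 CPM against 0.0477 and 0.452 CPM, as did the receptor Pdgfrb, at 103 CPM against 6.77 and 13.8 CPM, and Vegfa† fell, at 51.5 CPM against 259.5 and 224 CPM. The endothelial receptor Tek† fell, at 1.48 CPM against 22.98 and 21.4 CPM, and Kdr† had 0 counts in iMPC against 15.4 and 1.63 CPM, at least 86.6-fold lower than both mice pooled (floor of 3 counts; 160.0 and 16.9 against mouse 1 and mouse 3 alone). Both moved with the endothelial marker sum, which was higher in mouse 1. In cAMP signalling, the catalytic subunit Prkaca and the regulatory subunit Prkar2b had 415 CPM against 42.96 and 42.01 CPM (Prkaca) and 116 CPM against 11.8 and 10.1 CPM (Prkar2b), and the phosphodiesterase Pde4b had 112 CPM against 2482 and 2111 CPM (log2 fold change -4.35 ± 0.85, edgeR adjusted p = 0.0019). Of 43 small GTPases and their regulators, 12 fell and 3 rose (4 rose and 6 fell under library-size scaling), with Gem at 12.9 CPM against 1323 and 1166 CPM, Rrad at 2.19 CPM against 372 and 86.1 CPM and Rnd3† at 161 CPM against 969 and 476 CPM.

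Transport and cytoskeleton families were mixed. Of 154 solute carriers, 20 rose and 32 fell, and 7 fell under library-size scaling. The heavy chain of amino acid exchangers Slc3a2 had 161 CPM against 1791 and 1429 CPM and the glutamine transporter Slc38a2† had 192 CPM against 718 and 1066 CPM; the mitochondrial oxoglutarate carrier Slc25a11 had 135 CPM against 38.9 and 38.2 CPM and Slc38a4, an imprinted amino acid transporter, had 174 CPM against 11.3 and 2.03 CPM. Of 38 actin regulators, 7 rose (18.4%) and 3 fell (7.9%), against 14.7% and 12.5% of all genes. Under library-size scaling 7 rose and 0 fell, and by DESeq2 8 fell. The actin-bundling gene Fscn1 had 895 CPM against 40.1 and 84.6 CPM, and the profilin Pfn2 had 339 CPM against 12.3 and 8.37 CPM. Of 17 S100 and annexin genes, 6 fell (11 by DESeq2) and 0 rose: S100a4† had 5.89 CPM against 39.7 and 20.5 CPM. S100a8 and S100a9, proteins of neutrophils, had 0 counts in iMPC against 19.9 and 21.9 CPM and 25.4 and 24.6 CPM, at least 217-fold and 259-fold lower, and they moved with the immune marker sums.

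In several large families few members were called. Of 74 nuclear genes of the respiratory chain 1 rose (7 under library-size scaling) and 0 fell; the riser was Ndufs1, at 269.6 CPM against 64.5 and 48.7 CPM. Of 46 proteasome genes 1 rose, Psmd5 at 103 CPM against 27.2 and 22.7 CPM, and 1 fell, the immunoproteasome gene Psmb8† at 2.03 CPM against 32.2 and 21.8 CPM. Of 52 splicing factors 3 rose and 1 fell (3 fell by DESeq2). Among 13 genes of the CCT chaperonin and prefoldin, 0 were called by edgeR, 0 by DESeq2 and 0 passed an unadjusted p of 0.05. Each share lies below the 14.7% and 12.5% of all genes. Cytosolic ribosomal protein genes fell in 10 of 86 cases (11.6%), near the 12.5% of all genes, with a median log2 fold change of -1.26 (-0.59 and 0 calls under library-size scaling, 28 falls by DESeq2). Rplp0† had 455 CPM against 2479 and 2387 CPM and Rpl4, at 937 CPM against 2027 and 2325 CPM, was not called; these genes have many processed copies, and single values are uncertain. The snoRNA host Gas5† had 63.4 CPM against 433 and 855 CPM. Among the 13 mRNAs of the mitochondrial genome 1 was called lower by edgeR, mt-Co1† at 548 CPM against 4039.6 and 1812 CPM, and 7 were called lower by DESeq2.

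Summed family levels in the other 3 libraries are given as a description. The chaperone family summed to 13599 CPM in ASC, 10568 CPM in Pax7-negative iMPC and 14365 CPM in MEF, so that the other libraries lay beside iMPC and the QSC pair lay apart. For AP-1, ATF and Maf factors the sums were 1415 CPM in ASC, 1405 CPM in Pax7-negative iMPC and 1476 CPM in MEF, and for the MHC list 242 CPM in ASC, 418 CPM in Pax7-negative iMPC and 579 CPM in MEF. The replication list summed to 1942 CPM in ASC, 1648 CPM in Pax7-negative iMPC and 2173 CPM in MEF, below the sum of Pax7-positive iMPC, 3999 CPM, in each. The IGF system summed to 1998 CPM in ASC, 6834 CPM in Pax7-negative iMPC and 2025 CPM in MEF, against 1436 and 1824 CPM in QSC and 5344 CPM in iMPC, so that both iMPC libraries lay above the other 4. Each of these groups is 1 library, and no test was made among them.

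**Figure D4:**
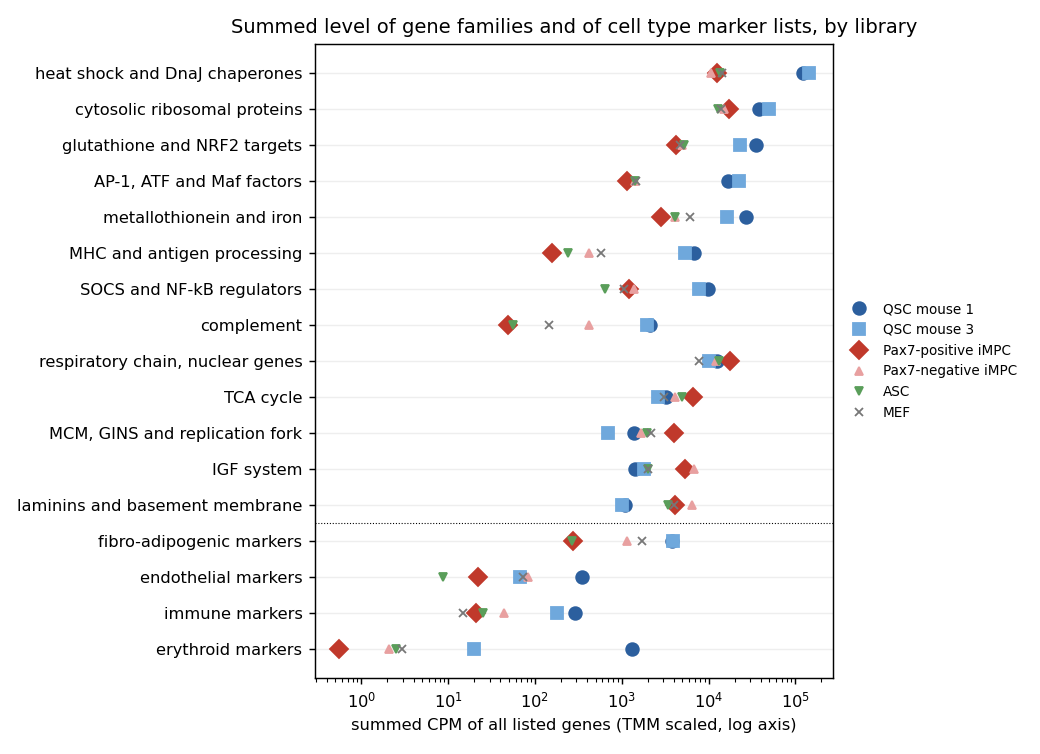
Summed CPM (log axis) of the genes of each family, above the dotted line, and of each marker list, below it, in all 6 libraries; large symbols are the 3 libraries compared. The chaperone, AP-1 and metallothionein sums of both QSC mice lie to the right of all other libraries, and the erythroid sums of the mice lie far apart, at 1300 and 20.12 CPM.

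The mice differed from each other in ways that touch single genes. The Y-linked genes Ddx3y† and Eif2s3y† were called lower in iMPC, but their counts came almost wholly from mouse 1, with 455 and 0.226 CPM and 82.7 and 0.0452 CPM, and iMPC had 0 counts, so that both calls rest on mouse 1. Xist, the RNA of the inactive X chromosome, had 39.1 CPM against 0.0954 and 530.1 CPM and was not called. Uty and Kdm5d, also Y-linked, had 23.2 and 6.53 CPM in mouse 1 and 0 CPM in mouse 3 and in iMPC. The labels give no sex for these libraries, and a difference of sex between them was not tested. Gal†, the galanin precursor, had 189 CPM against 7511 and 1332 CPM, and the chemokine Cxcl2 had 0.965 CPM against 526 and 47.4 CPM. For Gal and Cxcl2 the size of the fall depends on which mouse it is set against, while the direction does not.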

How the data were processed

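Poly(A) RNA of 6 libraries was sequenced from directional libraries, per the labels. The authors' deposited tables hold raw counts per gene and RPKM values. The genome build mm9 and the tools edgeR, Picard 1.100, HTSeq 0.6.0 and STAR 2.3.0 are named in the submitters' processing notes, and whether counting used strand is not stated. The counts were fitted with edgeR 4.0.16 (R 4.3.3, limma 3.58.1; TMM scaling, quasi-likelihood F test, 1 coefficient per group, all 6 libraries, Benjamini-Hochberg), and the RPKM values only rank genes by level per length. CPM were computed from the counts. A gene at 0 counts in a group was set against a floor of 3 counts over the group, and 95% intervals of ratios cover counting error only. Library size scaling, DESeq2 1.42.0 and other filters were alternatives. Nothing in the labels says more of the QSC libraries than that they came from mouse 1 and mouse 3. The spread behind the p-values comes from these mice and is moderated across genes (prior degrees of freedom 16.3). A gene's p-value thus does not measure how far the mice differ for that gene alone. Genes named are the 12 largest rises and falls, up to 4 called members in each direction of a list, the 15 highest by RPKM, and members that complete a family; some are not reported here. Genes that match a family's name pattern but belong elsewhere were left out of its list. Members, lists and motifs were chosen with earlier results of these data known. Promoters are RefSeq windows of GRCm38.p6, matched by symbol for 11517 of the 17116 genes tested.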

Additional observations from a re-analysis of the deposited data

How the results depend on the processing

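No paired analysis was possible, because there is 1 iMPC library and the labels link it to neither QSC mouse. Scaling by library size gave 508 genes called lower, and by size 2871 higher and 1039 lower. RLE scaling, DESeq2, the 3 libraries alone, a minimum of 1 CPM and no filter each kept the counts of called genes within 1.5 times, at 1492 to 1960 higher and 1414 to 1848 lower. Leaving out 1 QSC mouse leaves no residual degrees of freedom and no test; by size it gave 1615 to 1816 genes higher and 1602 to 1785 lower. Under library-size scaling the log2 fold change of 14 named genes that were not called turned from below 0 to above it: Creb1 0.56, Dnmt3a 0.6, Fgfr4 0.59, Hsp90b1 0.15, Kif3a 0.44, Kif5b 0.03, Lrp6 0.33, Nup62 0.14, Pcna 0.39, Slc11a2 0.28, Smad4 0.2, Tap1 0.15, Tpr 0.37 and Trp53 0.48. Of 311 named genes with at least 5 CPM, 58 lost their call under that scaling, and E2f4 gained one (edgeR adjusted p = 0.044). With DESeq2, Eif2s3y and Cxcl5 lost their call (adjusted p = 0.085 and 0.42) and Itm2a and Socs3 gained one (adjusted p = 0.028 and 0.0098); Itm2a gained one in the 3 libraries alone as well (edgeR adjusted p = 0.036). The cause was not tested. With 1 iMPC library and 2 QSC libraries the precision is limited, and a difference between cultures of iMPC cannot be seen here.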
